A study of Mus musculus with 12 samples.

Results

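Transcripts of 10 immediate-early genes, Fos, Fosb, Fosl2, Jun, Junb, Egr1, Egr2, Egr3, Atf3 and Ier2, were followed by RNA sequencing in mouse aorta during and after treatment with minoxidil, a drug that lowers blood pressure by opening potassium channels in vascular smooth muscle. The genes were picked by symbol, 10 of the 50600 genes with counts, and all 10 passed the filter on low counts, which 24660 genes passed. The list was drawn up with the levels of these genes in all 3 groups known, so their levels and differences are given as a description, with no test of their own. Off-drug mice (n = 4) were 2.5 months old when minoxidil was put in their drinking water, kept it for 2 weeks and then had 1 week of plain water. On-drug mice (n = 4) were taken at the end of the same 2 weeks, and control mice (n = 4) drank plain water throughout. All 12 mice were C57BL/6J with the genotype Elastin +/-, so that no group had the normal dose of elastin, and all carried the labelled age of 3 months. The schedule makes off-drug animals about 1 week older than on-drug animals. The labels used here give neither the sex of the mice, nor the dose of minoxidil, nor the hour of harvest. The tissue was aorta from below the left subclavian branch down to the diaphragm.

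Immediate-early genes are transcribed within minutes of a stimulus, without new protein synthesis, by factors that already sit in the cell, mainly the serum response factor SRF with its ETS partners and the cAMP-responsive factor CREB. The FOS and JUN proteins pair through leucine zippers to form the transcription factor AP-1, in which JUN proteins can also pair with each other and FOS proteins cannot. EGR proteins are zinc-finger factors that bind GC-rich sites. In the arterial wall both families are known to respond to stretch, injury and growth factors, and their messages and proteins are short-lived.

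Promoter sequence was available from RefSeq (GRCm38.p6) for 7 of the 10 genes. Windows of 150 bases before the RefSeq start are shown for 3 genes, because Fos and Junb were the AP-1 genes with the lowest off-drug levels relative to controls and Jun was the one that went the other way. Each is written 5′ to 3′ on the strand of the gene, and capitals mark the motifs searched.

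Fos: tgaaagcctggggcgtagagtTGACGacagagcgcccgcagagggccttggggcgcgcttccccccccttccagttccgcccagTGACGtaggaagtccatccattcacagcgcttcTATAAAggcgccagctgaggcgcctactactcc
Junb: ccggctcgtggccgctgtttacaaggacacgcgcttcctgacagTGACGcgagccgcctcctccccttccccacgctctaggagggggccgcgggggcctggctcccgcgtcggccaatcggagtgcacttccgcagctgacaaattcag
Jun: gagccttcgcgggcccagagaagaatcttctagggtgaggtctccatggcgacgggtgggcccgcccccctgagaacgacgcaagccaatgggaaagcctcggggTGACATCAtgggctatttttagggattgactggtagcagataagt

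The Fos window lies at chr12:85473740-85473889 on the plus strand, the Junb window at chr8:84978749-84978898 and the Jun window at chr4:95052223-95052372, both on the minus strand. The Fos window held TGACG, the core of the cAMP response element, at positions -129 and -66 from the start, and TATAAA at -33. The Junb window held TGACG at -106. The gene start in the count annotation lies 30 bases downstream of the RefSeq start of Junb. The Jun window held neither of these, and held the AP-1 and CRE-like octamer TGACNTCA at -45. TGACG was also present before Fosb at -60 and, on the opposite strand, before the RefSeq start of Atf3 at -7. Before the Egr2 start used below it lay at -111 and, on the opposite strand, at -55. The off-drug and control ranges of Fosb and of Atf3 overlapped and those of Egr2 did not. No link between motif and level was tested. Searched on both strands, TGACG occurred in 13.3% and TGACNTCA in 5.7% of the 32851 RefSeq windows of this length. The letters TATAAA, searched on the gene's strand, occurred in 4.84%. No overlap between these motifs occurred in the 3 windows, although TGACNTCA contains TGACG where N is G. The CArG box, the site of SRF, was present in 0.916% of windows. Among the windows of the 7 genes with sequence it was found at Egr2 alone, before 4 of its 5 RefSeq starts. Bases outside the windows were not searched, and Egr1, Egr3 and Ier2 had no sequence here. SRF sites elsewhere at any of the 10 genes would therefore be missed. The 30 bases that begin with the Egr2 CArG box lie at chr10:67537797-67537826 on the plus strand. They are shown because Egr2 was the one gene of the 10 whose groups overlapped in none of the 3 comparisons.

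Egr2: CCATATATGGgcagcgaCGTCAcgggtatt

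The capitals mark the CArG box and a TGACG on the opposite strand. A GC-rich EGR site, GCGNGGGCG, was present before Fosb at -50 and before the RefSeq start of Fosl2 at -79, against 3.81% of windows. The AP-1 site TGANTCA occurred in 4.24% of windows and in none of the windows of these 7 genes. The count annotation starts some genes elsewhere than RefSeq does. Counted from the RefSeq start, its gene start lies at -671 for Fosl2, whose whole window of 150 bases is exon there, at -2394 for the Egr2 start used here, at -34706 for Atf3 and at -6 for Fosb, so these windows are not all upstream of the gene as counted. These matches are letters in a window and were not tested for binding.

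Libraries held 41524501 to 109423243 counts, and the 10 genes had between 884 (Egr3) and 131532 (Fos) counts over the 12 libraries, with no library below 36. Levels are given as CPM, read counts scaled to a common library size with edgeR's TMM factors, with the SD over 4 mice. The counting ignored strand. The Jun count shares 232 exon bases with the antisense gene Junos, and the Junb count shares 173 with Prdx2 on the opposite strand, so these pairs cannot be fully told apart. Junos averaged 19.7 ± 2.26 CPM off drug, 11.9 ± 2.65 on drug and 12.7 ± 1.96 in controls, and Prdx2 86.1 ± 5.16, 87 ± 1.77 and 89.6 ± 4.59 CPM in the same order. The smooth muscle markers Acta2, Myh11, Tagln, Cnn1 and Smtn summed to 17075 to 19577 CPM off drug, 17782 to 20461 on drug and 15594 to 18079 in controls, so the labelled tissue was recognisable in every library. No marker gene of the lists used below was at 0 in any library. In whole tissue, fewer cells of a type and less RNA per cell cannot be told apart.

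The first comparison set mice 1 week after withdrawal against untreated mice. Of the 10 genes 5, namely Fos, Junb, Egr1, Egr2 and Ier2, stood at 0.128 (Fos) to 0.221 (Ier2) of the control level. Fosb and Egr3 were lower by a smaller factor, and for Fosl2, Jun and Atf3 the off-drug and control ranges overlapped, with a higher off-drug mean for Jun. Log2 fold changes are given with their SE, from a fit over all genes.

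Fos encodes an inducible partner in AP-1. It was measured at 35.7, 33.8, 53.8 and 31.8 CPM in off-drug replicates 1 to 4, against 194, 272, 446 and 298 CPM in control replicates 1 to 4. The highest off-drug library lay below the lowest control by a wide margin. The log2 fold change was -2.96 ± 0.41, the largest of the 10 in size, and it lay between -3.17 and -2.72 when any 1 library was left out.
Fosb, a close relative of Fos, had 14.8, 9.29, 16.1 and 10.6 CPM off drug and 15.2, 28.4, 37.4 and 32.2 CPM in controls. The groups overlapped through control replicate 1, which was as low as the off-drug mice (-1.16 ± 0.37).
Fosl2 encodes FRA2, a member of the family whose message lasts longer after a stimulus. Its levels of 55.4 to 81.1 CPM off drug overlapped those of 61.5 to 86.1 CPM in controls (-0.11 ± 0.15).

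Among the JUN genes the directions parted. Junb, which encodes a weaker activator that can restrain JUN, had 49.1, 34.7, 53.2 and 42.5 CPM off drug and 175, 248, 259 and 224 CPM in controls. No off-drug library came near a control, and the log2 fold change was -2.34 ± 0.25. Jun, the strongly activating member, had 140.1, 105, 121 and 148 CPM off drug and 88, 75.1, 108 and 73.1 CPM in controls. The off-drug mean was higher (128 ± 19.3 against 86 ± 15.9 CPM, log2 fold change 0.58 ± 0.18), and the groups touched only where off-drug replicate 2 lay just under control replicate 3. The antisense gene Junos had a log2 fold change of 0.63 ± 0.15, given with no test because reads of the shared bases count for both genes. Jund, the third JUN gene and not one of the 10, had a log2 fold change of -0.03 ± 0.08 (adjusted p = 0.88 in edgeR's quasi-likelihood test).

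The EGR genes were lower off drug in the order Egr1, Egr2, Egr3. Egr1, the most abundant of them, had 16.2, 16.2, 19.8 and 13.8 CPM off drug and 115, 114, 119 and 90.5 CPM in controls, a log2 fold change of -2.74 ± 0.22. Egr2, which also directs myelination in Schwann cells, had 1.98, 1.5, 2.25 and 1.85 CPM off drug and 8.63, 11.8, 12.5 and 10.4 CPM in controls (-2.52 ± 0.22). The off-drug libraries of both genes were tightly grouped and far below every control. Egr3 was the least abundant, with 0.653, 0.775, 0.922 and 0.81 CPM off drug (36 to 85 reads) and 0.933, 1.72, 1.54 and 1.64 CPM in controls (60 to 117 reads). Its off-drug values lay just below control replicate 1 and well below the other 3 controls (-0.88 ± 0.29).

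Ier2, a small nuclear protein induced with AP-1, had 20.0, 15.4, 19.6 and 17.7 CPM off drug and 73.3, 90.1, 93.6 and 71.5 CPM in controls, without overlap (-2.18 ± 0.28). Atf3, a stress-induced factor of the same zipper class that often represses its targets, had 74.5, 58.3, 73.7 and 121 CPM off drug and 94.2, 63.3, 86.6 and 56.7 CPM in controls, and the groups overlapped over most of their range (0.12 ± 0.33). The highest off-drug value was that of replicate 4, without which the log2 fold change became -0.13.

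**Figure D1:**
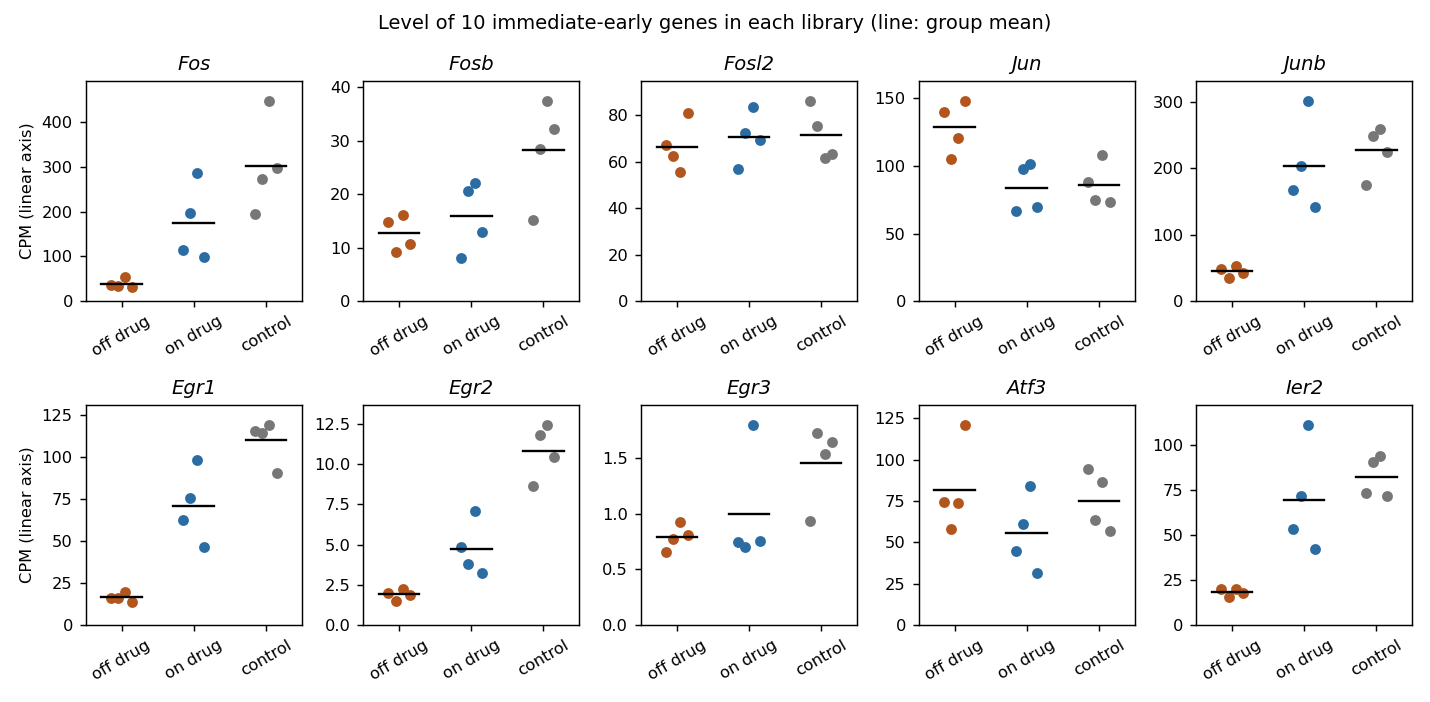
Level of each of the 10 genes in CPM (linear axes from 0) in each library, by group, with the group mean as a line (n = 4 mice per group). Off-drug points of Fos, Junb, Egr1, Egr2 and Ier2 lie below all on-drug and control points, whereas those of Jun lie above all on-drug points and those of Fosl2 and Atf3 overlap both other groups.

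Counted by the threshold of the all-gene fit, 5 of the 10 genes were called lower off drug than in controls and 0 higher, where 5.77% of all tested genes were called lower and 6.27% higher. Between groups that did not overlap 6 of the 10 were lower and 0 higher, against 7.73% and 9.2% of all genes. Jun was called higher without control replicate 3, which made 1 of the 10. Without control replicate 1 Egr3 and Fosb were also called lower, which made 7, and 6 were called lower without on-drug replicate 1 (with Fosb) or on-drug replicate 3 (with Egr3). The median log2 fold change of the 10 was -1.67, against -0.0077 over all genes. Because the genes were chosen with this difference known, nothing is read from these counts.

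Other measures also differed between these groups. The 10 clock genes listed (Arntl, Npas2, Clock, Nr1d1, Nr1d2, Per1, Per2, Per3, Cry1 and Dbp) included 5 called higher and 4 called lower off drug, and summed to 785 to 865 CPM off drug and 473 to 569 CPM in controls. Arntl alone, which encodes the clock activator BMAL1, had 1.02, 1.43, 1.11 and 0.791 CPM off drug and 19.1, 13.9, 14.9 and 20.8 CPM in controls. All 5 erythroid markers were called lower off drug, with sums of 1595 to 3747 CPM off drug and 3810.2 to 15784 CPM in controls. Heat-shock genes, of which 1 of 5 was called lower, summed to 1763 to 2970.4 CPM off drug and 3065 to 8149 CPM in controls. Reads that map to several places were counted at each, so near-identical copies in a list are not separate measures. Hspa1a and Hspa1b averaged 903 and 924 CPM off drug and 1899 and 1935 CPM in controls. Hba-a1 and Hba-a2 in the erythroid list may share reads in the same way. This holds for the counts and sums of these 2 lists in every comparison. Of 5 macrophage markers 2 were called lower, with sums of 287 to 311 CPM off drug and 309 to 382 CPM in controls. Of 5 smooth muscle markers 2, and of 5 skeletal muscle markers 1, were called higher. In the lists for endothelium, fibroblasts, T and B cells, neutrophils and platelets, fat, nerve and mast cells 0 of 5 genes each were called. The part of these differences in the levels of the 10 genes was not tested.

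The second comparison set the off-drug mice against mice still on minoxidil, from the end of treatment to 1 week later. The same 5 genes were the ones that were lower. Fos stood at 38.8 ± 10.2 CPM off drug and 174 ± 86.5 CPM on drug (-2.16 ± 0.40). For Junb these levels were 44.9 ± 8.1 and 204 ± 69.6 CPM (-2.18 ± 0.25). They were 16.5 ± 2.46 CPM off drug and 70.6 ± 22 CPM on drug for Egr1 (-2.10 ± 0.22). The off-drug libraries of all 3 genes lay below every on-drug library. In each the SD in CPM was several times larger on drug, where the mean was higher as well. The ratio of the highest to the lowest mouse differed less. It was 1.7 off drug and 2.9 on drug for Fos, 1.53 and 2.12 for Junb, and 1.43 and 2.12 for Egr1. Ier2 was at 18.2 ± 2.12 CPM off drug and 69.4 ± 30.3 CPM on drug (-1.93 ± 0.28), and Egr2 at 1.89 ± 0.313 CPM off drug and 4.74 ± 1.7 CPM on drug (-1.32 ± 0.22), again without overlap.

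Jun was the one gene that was higher off drug without overlap, at 128 ± 19.3 CPM against 84 ± 18.4 CPM on drug (0.62 ± 0.18). Junos, which shares reads with it, had 0.74 ± 0.15, again with no test. Atf3 averaged 81.9 ± 27.2 CPM off drug and 55.4 ± 22.6 CPM on drug (0.57 ± 0.34), with overlap. Fosl2, Fosb and Egr3 had log2 fold changes of -0.08 ± 0.15, -0.32 ± 0.37 and -0.30 ± 0.30, all with overlapping groups. Without on-drug replicate 3 the Egr3 value became 0.11 and the Fosl2 value 0.01.

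By the threshold of the fit 5 of the 10 genes were called lower and 0 higher, against 6.92% and 5.44% of all genes. Without overlap 5 were lower and 1 higher, against 9.37% and 9.44% of all genes. The median of the 10 was -0.82, against -0.0011 over all genes. Jun was called higher, which made 1 of the 10, without control replicate 3, off-drug replicate 2 or on-drug replicate 3. This comparison shares its off-drug mice with the first, so the 2 sets of values are given side by side and not as separate evidence. Of the clock genes 4 were called higher and 4 lower here, with sums of 785 to 865 CPM off drug and 586 to 710.5 CPM on drug. These sums mix both directions. Arntl, one of those called lower, averaged 1.09 ± 0.263 CPM off drug and 9.25 ± 3.22 CPM on drug, without overlap. No gene of the heat-shock or erythroid lists was called in edgeR, while their sums were 1763 to 2970.4 and 1595 to 3747 CPM off drug and 975 to 1556 and 3025 to 4679 CPM on drug. Markers called lower were 3 of 5 for fibroblasts, 3 of 5 for macrophages, 2 of 5 for endothelium, 1 of 5 for mast cells and 1 of 5 for smooth muscle, in which 1 other was called higher. The fibroblast sums were 1543 to 1822 CPM off drug and 2359 to 2981 CPM on drug, the macrophage sums 287 to 311 CPM off drug and 344 to 385 CPM on drug, and the endothelial sums 528 to 682 CPM off drug and 699.9 to 832 CPM on drug. Their part in the levels of the 10 genes was not tested.

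The third comparison set the end of 2 weeks of minoxidil against untreated mice. All 10 genes had negative log2 fold changes, which ran from -1.20 for Egr2 to -0.02 for Fosl2, and in 9 of the 10 genes the groups overlapped. Egr2, the exception, had 4.84, 3.82, 7.08 and 3.23 CPM in on-drug replicates 1 to 4, against 8.63, 11.8, 12.5 and 10.4 CPM in the controls, and the groups did not overlap (-1.20 ± 0.21). Its on-drug mean of 4.74 ± 1.7 CPM lay between 1.89 ± 0.313 CPM off drug and 10.8 ± 1.7 CPM in controls.

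Egr1 had 62.2, 75.5, 98.4 and 46.4 CPM on drug, and only replicate 3 reached into the control range of 90.5 to 119 CPM (-0.64 ± 0.21). Fos had 114, 197, 287 and 98.8 CPM on drug, with replicates 2 and 3 inside the control range of 194 to 446 CPM (-0.80 ± 0.38). Fosb had 8.16, 20.5, 22.2 and 12.9 CPM on drug, a log2 fold change of -0.84 ± 0.37. The on-drug means of these 3 genes lay between their off-drug and control means. For Junb the on-drug mean of 204 ± 69.6 CPM was nearer to the control mean of 227 ± 37.3 CPM (-0.16 ± 0.24). The same held for Ier2, at 69.4 ± 30.3 CPM on drug and 82.1 ± 11.3 CPM in controls (-0.25 ± 0.27). Egr3, Atf3 and Jun had -0.57 ± 0.29, -0.45 ± 0.34 and -0.04 ± 0.18, each with overlapping groups. Fosl2 (-0.02 ± 0.15) and Jun took either sign when single libraries were left out, with ranges of -0.12 to 0.07 and -0.15 to 0.09.

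Of the 10 genes 1 was called lower, Egr2, and 0 higher, against 2.94% and 4.13% of all genes. Without overlap 1 was lower and 0 higher, against 6.01% and 6.3% of all genes. The median of the 10 was -0.51, against 0.0049 over all genes. Without on-drug replicate 3 Egr1 and Egr3 joined Egr2, so that 3 genes were called, and the log2 fold changes of Fos, Egr3 and Ier2 became -1.16, -0.99 and -0.57. Heat-shock genes were called lower on drug in 4 of 5 cases and summed to 975 to 1556 CPM on drug and 3065 to 8149 CPM in controls. Clock genes were called higher in 3 and lower in 2 of 10 cases, with sums of 586 to 710.5 CPM on drug and 473 to 569 CPM in controls. Arntl, not called here, averaged 9.25 ± 3.22 CPM on drug and 17.2 ± 3.31 CPM in controls. Dbp, called higher, averaged 109 ± 35.7 and 46.8 ± 10.2 CPM in the same order. For both genes the groups did not overlap. Called higher were 2 of 5 markers each for endothelium, mast cells and skeletal muscle, and 1 of 5 each for smooth muscle, fibroblasts and macrophages. Their part in the levels of the 10 genes was not tested.

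**Figure D2:**
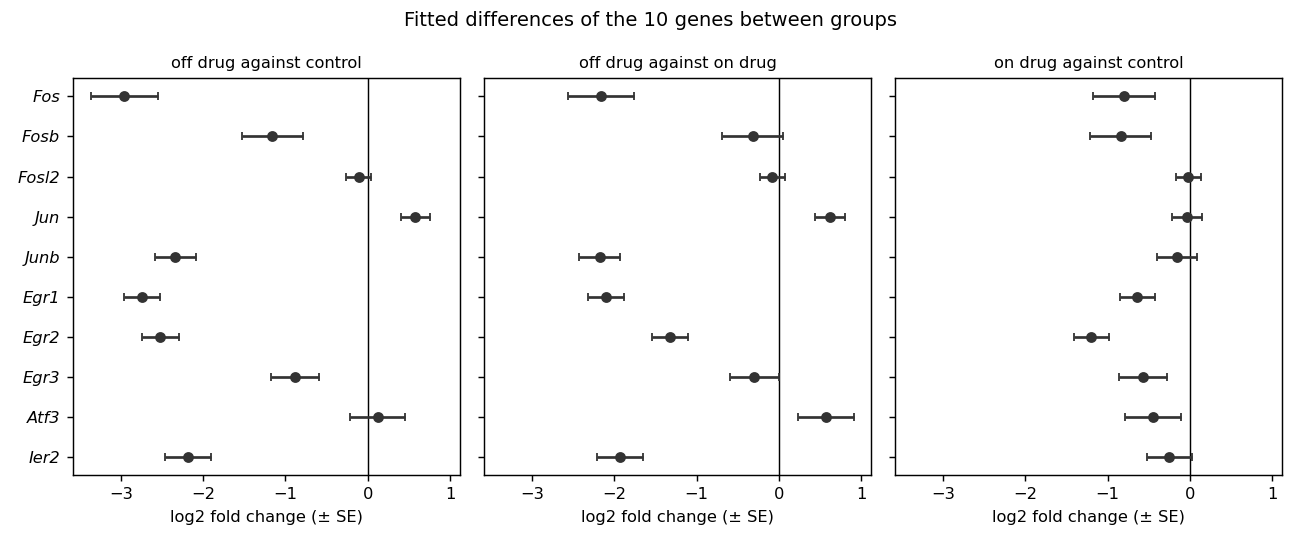
Fitted log2 fold change with its SE for each of the 10 genes in the 3 comparisons (edgeR, 4 mice per group). Fos, Junb, Egr1, Egr2 and Ier2 lie between -2.96 and -2.18 off drug against control, and the values on drug against control lie between -1.20 and -0.02.

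The 10 genes varied more between mice of a group than most genes did. The biological coefficient of variation that edgeR fitted ran from 0.146 for Fosl2 to 0.368 for Fos. Set against all tested genes within 0.5 log2 CPM of the same mean level, each of the 10 was above the median, and the share of those genes that varied less was 78.2% for Egr3, 93% for Egr2 and 96.6% to 99.4% for the other 8. The ratio of the highest to the lowest mouse was widest on drug for 9 genes, all but Fosl2, for example 1.7 off drug, 2.9 on drug and 2.31 in controls for Fos, and 1.3, 2.65 and 1.31 in the same order for Ier2. The share of all genes that were widest on drug was not counted. On-drug replicate 3 was the highest on-drug library for all 10 genes, so the 9 ratios are not separate observations.

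Within a group several of the 10 genes were highest or lowest in the same mouse. How many of all genes were highest in each library was not counted. A trait of a library and a trait of these genes therefore cannot be told apart here. On-drug replicate 3 had the highest level of all 10 genes among the on-drug mice, and replicate 4 the lowest of 6 of them. This replicate 3 was the library with the fewest counts, 41524501. In the off-drug group replicate 3 was highest for 6 genes and replicate 2 lowest for 6, and in controls replicate 3 was highest for 7. The 3 exceptions among controls were Fosl2 and Atf3, highest in replicate 1, and Egr3, highest in replicate 2. Off-drug replicate 4 was highest for Fosl2, Jun and Atf3. Control replicate 3 also had the highest level of the heat-shock gene Hspa1a among all libraries, at 3415 CPM against 1232 to 1691 CPM in the other controls, a value shared with its near-identical copy Hspa1b. On-drug replicate 3 was not high in this respect, with Hspa1a at 355 CPM in a group that ran from 254 to 508 CPM. Whether heat-shock level and the 10 genes are related was not tested.

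**Figure D3:**
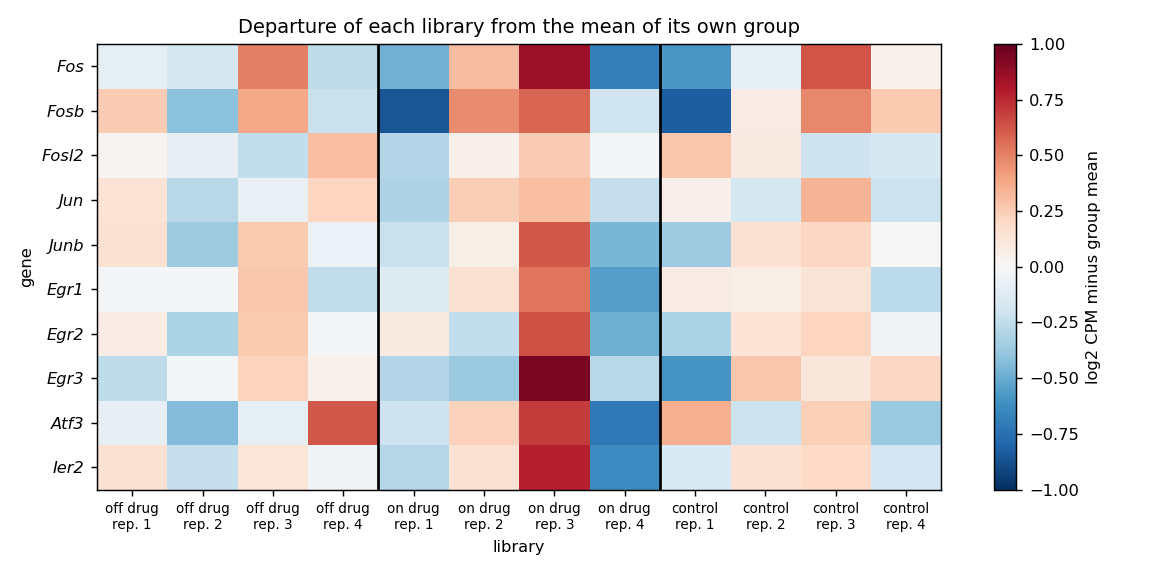
Departure of each library from the mean of its own group, in log2 CPM, for each of the 10 genes (columns are libraries, black lines separate groups). On-drug replicate 3 is above its group mean for all 10 genes, and on-drug replicate 4 holds the lowest value of 6.

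Compared per length of exon, the order of the genes differed between groups. Levels are given as CPM per kilobase. Off drug Jun came first at 40.3 ± 6.04, followed by Atf3 at 38 ± 12.6, Junb at 19.5 ± 3.52 and Fos at 16.5 ± 4.33. Over single mice the ranges of Jun and Atf3, of Junb and Fos and of Egr3 and Egr2 overlapped, and the other neighbours in the order were apart. On drug Junb (88.5 ± 30.2) came before Fos (74 ± 36.8), and all neighbours overlapped except Egr1 with Fosl2 and Fosl2 with Fosb. In controls Fos came first at 129 ± 44.9, followed by Junb at 98.5 ± 16.2, Ier2 at 54 ± 7.45, Atf3 at 34.9 ± 8.37, Jun at 27 ± 4.99 and Egr1 at 24.5 ± 2.9. The overlapping neighbours there were Fos with Junb, Atf3 with Jun, Jun with Egr1 and Fosb with Egr2. Fosl2, Fosb, Egr2 and Egr3 stood below 10 CPM per kilobase in every group.

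The shares of the genes within each family are given next, as a description. Fos made up 62.1% ± 6.57 of the FOS family's summed level per kilobase off drug, 86.1% ± 4.06 on drug and 90.5% ± 2.61 in controls. Fosl2 made up 26.8% ± 6.84, 9.61% ± 3.22 and 5.83% ± 2.69 in the same order. The FOS sum itself was 26.3 ± 4.07 CPM per kilobase off drug, 84.7 ± 38.9 on drug and 141 ± 45.2 in controls. In the JUN family the share of Junb was 9.51% ± 1.42 off drug, 33.8% ± 6.18 on drug and 36.1% ± 6.03 in controls, and that of Jun was 19.6% ± 1.11, 10.2% ± 1.1 and 9.86% ± 1.76. Jund, the least inducible of the family, was the largest part in every group at 70.9% ± 1.32, 56% ± 6.57 and 54.1% ± 6.63. The JUN sum was 205 ± 20.5 CPM per kilobase off drug, 257 ± 39.3 on drug and 273 ± 5.47 in controls. The EGR family remained mostly Egr1, at 76.4% ± 2.39 off drug, 88.2% ± 2.01 on drug and 85.2% ± 2.7 in controls. Shares are free of library scaling, but they depend on the exon lengths of the annotation.

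**Figure D4:**
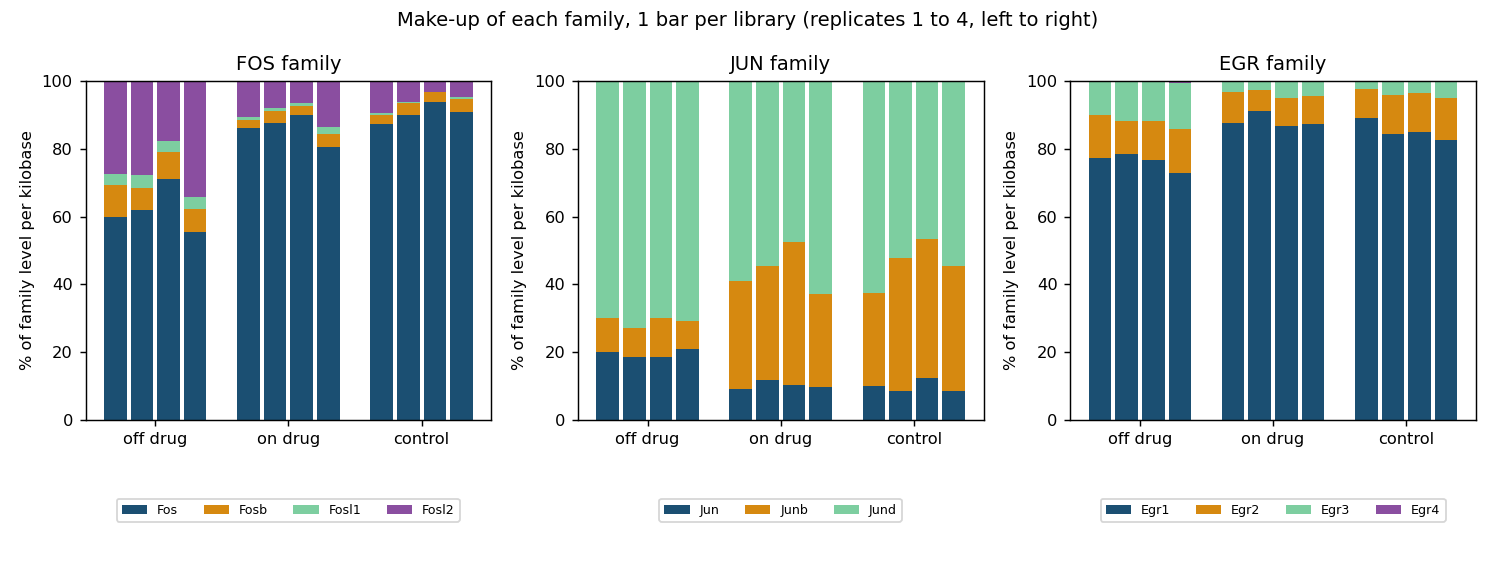
Share of each gene in the level per kilobase of its family, 1 stacked bar per library (replicates 1 to 4 from left to right within a group). Off-drug bars show a smaller share of Fos and Junb and a larger share of Fosl2 and Jun than the on-drug and control bars.

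The genes whose pattern was most like that of the 10 were found by the Pearson correlation, over the 12 libraries, of log2 CPM with the mean of the standardised log2 CPM of the 10. Among 12183 named genes with a mean of at least 1 log2 CPM the highest 8 were Cyr61 and Ube2z (both 0.94), Socs1, Nr4a1 and Endod1 (all 0.92), and Arf6, Actr3 and Gne (all 0.9). The value ranks genes and carries no test, since the 12 libraries fall into 3 groups. Nr4a1, an orphan nuclear receptor and itself an immediate-early gene, averaged 23.8 ± 10.1 CPM off drug, 67.2 ± 25.7 on drug and 108 ± 17.3 in controls. Cyr61, a secreted matricellular protein induced by serum, averaged 277 ± 38.5, 341 ± 79.3 and 494 ± 106 CPM in the same order. Of the other 6, Socs1 inhibits cytokine signalling, Arf6 is a small GTPase of the cell surface and Actr3 is part of the actin-branching ARP2/3 complex. Differences could be small, such as 188 ± 5.55, 211 ± 19.6 and 228 ± 5.18 CPM for Endod1.

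The rest of the pathway was read from 5 lists of 93 genes that are not among the 10, of which 92 were tested and Egr4 was too low. These genes carry adjusted p-values from edgeR's quasi-likelihood test over all 24660 genes. The lists too were chosen with earlier results of these data known, and the p-values make no allowance for that choice. The shares of list genes called are therefore given as a description, and nothing is read from their excess over all genes. Off drug against control, 19 were lower and 4 higher, and off drug against on drug 20 were lower and 6 higher. On drug against control 6 were lower and 4 higher. Off drug against control these made 20.7% lower and 4.35% higher of the 92, beside 5.77% and 6.27% of all genes. Off drug against on drug they made 21.7% lower and 6.52% higher, beside 6.92% and 5.44% of all genes. On drug against control they made 6.52% lower and 4.35% higher, beside 2.94% and 4.13% of all genes. The higher shares were thus near or below those of all genes, and counts of 1 or 2 in a single list below are not read as results about that list. Scaling without composition factors turned the split on drug to 2 lower and 7 higher. Without on-drug replicate 4 there were 2 lower on drug, and the higher ones became 7 without control replicate 1 or 10 without on-drug replicate 1. Off drug against control the higher ones became 8 (control replicate 1 left out) or 7 (on-drug replicate 1 left out), and off drug against on drug 3 without on-drug replicate 2. The medians of the single lists were as follows. For the upstream genes the median log2 fold change was 0.01 off drug against control, -0.02 off drug against on drug and 0.01 on drug against control. For feedback inhibitors it was -0.18 off drug against control, -0.15 off drug against on drug and 0.03 on drug against control. For other immediate-early genes it was -0.32 off drug against control, -0.24 off drug against on drug and -0.17 on drug against control, and for targets -0.11 off drug against control, -0.34 off drug against on drug and 0.26 on drug against control. For relatives and corepressors it was -0.08 off drug against control and 0 in the other comparisons. Over the 92 together it was -0.11 off drug against control, -0.15 off drug against on drug and 0.03 on drug against control, beside the medians of all genes given above. A gene named below without a remark kept its call in each of 21 other settings. Where 0 genes of a list were called in a direction, 1 to 4 had an unadjusted p below 0.05 in edgeR, and DESeq2 and limma-voom each called 0 or 1.

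Upstream factors and kinases were called in both directions. Off drug against control, 2 of 18 were higher and 2 lower. Mkl2, which encodes the SRF coactivator MRTF-B, rose to 41.6 ± 1.78 CPM off drug, against 30.8 ± 3.07 in controls (0.43 ± 0.07, adjusted p = 0.000713 in edgeR), and Mapk3, the kinase ERK1, was higher as well (0.37 ± 0.07, adjusted p = 0.0031). Crem, a relative of CREB with repressor isoforms, fell to 12.7 ± 1.63 CPM off drug, against 19.3 ± 2.4 in controls (log2 fold change -0.60 ± 0.11, adjusted p = 0.00105). Rps6ka3, the kinase RSK2, had -0.34 ± 0.08 (adjusted p = 0.0116), a call that ended without composition factors (0.0568). Off drug against on drug 1 was higher and 1 lower, Mkl2 (0.24 ± 0.07, adjusted p = 0.0346) and Rps6ka3 (-0.28 ± 0.08, adjusted p = 0.0305). Without composition factors neither was called (0.0698 for Mkl2 and 0.0802 for Rps6ka3). The Mkl2 call also ended without off-drug replicates 1 (0.0998), 2 (0.0532) or 4 (0.0593) or on-drug replicates 1 (0.0538) or 2 (0.116). The Rps6ka3 call ended without off-drug replicates 1 (0.117) or 3 (0.091) or on-drug replicates 1 (0.0883), 2 (0.0643) or 3 (0.0646). In the on-drug mice 2 were lower than in controls and 0 higher. Crem was at 13.5 ± 1.32 CPM on drug (-0.51 ± 0.11, adjusted p = 0.00733). Creb1 had -0.29 ± 0.07 (adjusted p = 0.0215), which ended when control replicate 3 (0.0721), on-drug replicate 3 (0.0773) or on-drug replicate 4 (0.0739) was left out, and without composition factors (0.0631).

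Of 12 tested relatives and corepressors, 2 were lower off drug than in controls and 0 higher. Both were small MAF factors, zipper proteins that lack an activation domain. Mafk fell to 77.8 ± 2.86 CPM off drug, against 131 ± 10.9 CPM in controls (-0.75 ± 0.06, adjusted p = 5.8e-07), and Maff to 17.5 ± 1.01 CPM, against 27.6 ± 4.77 CPM (-0.66 ± 0.10, adjusted p = 0.000356). Against on-drug mice, at 150.3 ± 8.01 and 34 ± 3.02 CPM, the differences were -0.95 ± 0.06 (adjusted p = 3.5e-08) and -0.95 ± 0.10 (adjusted p = 6.8e-06). Atf2 was higher off drug than on drug (0.29 ± 0.08, adjusted p = 0.0175, and 0.0505 without on-drug replicate 4). Between on-drug and control mice 0 of 12 were called in edgeR or limma-voom, 1 was called in DESeq2, and 3 higher and 1 lower had an unadjusted p below 0.05 in edgeR.

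Feedback inhibitors, which are induced along with immediate-early genes and shorten their expression, included 4 of 17 lower and 0 higher off drug than in controls. Socs3, which blocks cytokine receptor signalling, fell to 6.51 ± 0.433 CPM off drug, against 14.7 ± 2.41 CPM in controls (-1.18 ± 0.16, adjusted p = 0.000358). Zfp36, which speeds the decay of AU-rich messages, fell to 25.6 ± 1.72 CPM, against 54.6 ± 6.45 CPM (-1.09 ± 0.15, adjusted p = 0.000584). The MAP kinase phosphatase Dusp1 fell to 242 ± 19.8 CPM, against 390.0 ± 58.8 CPM (-0.69 ± 0.11, adjusted p = 0.000846), and Spry1, an inhibitor of receptor tyrosine kinase signalling, was lower as well (-0.66 ± 0.08, adjusted p = 4.4e-05). Off drug against on drug 4 were lower and 3 higher, and the 4 lower ones were again Socs3 (-1.33 ± 0.16, adjusted p = 9.7e-05), Zfp36 (-1.19 ± 0.15, adjusted p = 0.000236), Spry1 (-0.53 ± 0.08, adjusted p = 0.000272) and Dusp1 (-0.61 ± 0.11, adjusted p = 0.00164). The 3 higher ones were Spry2 (0.48 ± 0.11, adjusted p = 0.00587), Dusp8 (0.66 ± 0.16, adjusted p = 0.021) and Dusp10 (0.62 ± 0.18, adjusted p = 0.0394). Whether these 3 kept their calls in the other settings is not given here. Compared with controls, 1 inhibitor was lower on drug, Spry2 (-0.37 ± 0.11, adjusted p = 0.0483), and 0 higher. That call ended in 13 of 21 other settings, 8 of which leave out a library: control 1 (0.0834), control 2 (0.106), control 3 (0.0882), off drug 2 (0.0624), off drug 4 (0.0549), on drug 1 (0.0652), on drug 2 (0.132) and on drug 4 (0.0909).

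Of 25 other immediate-early genes 7 were lower off drug than in controls and 0 higher. Btg2, an antiproliferative gene, fell to 133 ± 23.6 CPM off drug, against 439 ± 66.7 CPM in controls (-1.72 ± 0.25, adjusted p = 0.00218), the survival factor Mcl1 to 269 ± 10.4 CPM, against 371 ± 21.1 CPM (-0.46 ± 0.06, adjusted p = 5.0e-05), and the zipper factor Cebpb to 28.3 ± 3 CPM, against 44.9 ± 5.77 CPM (-0.66 ± 0.11, adjusted p = 0.00104). Ifrd1 was lower as well (-0.37 ± 0.07, adjusted p = 0.00126). Off drug against on drug 5 were lower and 0 higher, led by the stress-response gene Ier3 (-0.81 ± 0.09, adjusted p = 1.5e-05), the kinase Pim1 (-1.44 ± 0.24, adjusted p = 0.00237), Btg2 (-1.31 ± 0.25, adjusted p = 0.00744) and the kinase Plk2 (-0.44 ± 0.11, adjusted p = 0.0105). Against controls 2 were higher on drug and 3 lower. Ier3 rose to 62.6 ± 6.01 CPM on drug, against 38.7 ± 4.55 CPM in controls (0.69 ± 0.09, adjusted p = 0.000354), and Plk2 to 17.3 ± 2.11 CPM, against 11.2 ± 1.71 CPM (0.63 ± 0.11, adjusted p = 0.00243). Homer1 (-0.81 ± 0.15, adjusted p = 0.00616) and Mcl1 (-0.26 ± 0.06, adjusted p = 0.0142, and 0.0525 without on-drug replicate 4 and 0.0661 without composition factors) were lower. Ier3 and Plk2 were thus higher on drug, where none of the 10 genes was called higher.

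Known targets of AP-1 or EGR factors went both ways. Off drug against control 4 of 20 were lower and 2 higher. The chemokine gene Ccl2 had 0.654 ± 0.426 CPM off drug, against 4.49 ± 2.25 CPM in controls (-2.79 ± 0.60, adjusted p = 0.0143). Its groups overlapped, with 1.17 CPM in control replicate 1 and 1.24 CPM in off-drug replicate 2, and off-drug libraries held only 28 to 99 reads. The stromelysin gene Mmp3 fell to 62 ± 7.64 CPM, against 87.1 ± 12 CPM (-0.49 ± 0.12, adjusted p = 0.0143, and 0.0519 with no filter). The prostaglandin synthase Ptgs2 rose to 38.7 ± 8.41 CPM, against 19.4 ± 1.84 CPM (1.00 ± 0.21, adjusted p = 0.0111), and Fgf2 to 121 ± 10.6 CPM, against 92.3 ± 9.69 CPM (0.39 ± 0.08, adjusted p = 0.00534). Off drug against on drug 8 were lower and 1 higher. Cyclin D1 (Ccnd1) stood at 22.9 ± 2.44 CPM off drug and 37.4 ± 0.735 CPM on drug (-0.71 ± 0.07, adjusted p = 2.8e-06). Icam1 (-0.41 ± 0.09, adjusted p = 0.00381) and Timp1 (-0.50 ± 0.11, adjusted p = 0.00537) were lower and Fgf2 (0.38 ± 0.08, adjusted p = 0.00533) was higher. During treatment 2 were higher than in controls and 0 lower. Ccnd1 was higher on drug, with 22.9 ± 0.655 CPM in controls (0.71 ± 0.07, adjusted p = 1.9e-05), and Tgfb1 had 0.43 ± 0.12 (adjusted p = 0.0293). The Tgfb1 call was lost when control replicate 2 (0.0664), control replicate 3 (0.0942), control replicate 4 (0.0731), on-drug replicate 2 (0.0792), on-drug replicate 3 (0.122) or on-drug replicate 4 (0.0572) was left out, with the 2 groups alone (0.0686) and in limma-voom (0.0584). Ccnd1 was not called off drug against control (adjusted p = 0.998 in edgeR).

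**Figure D5:**
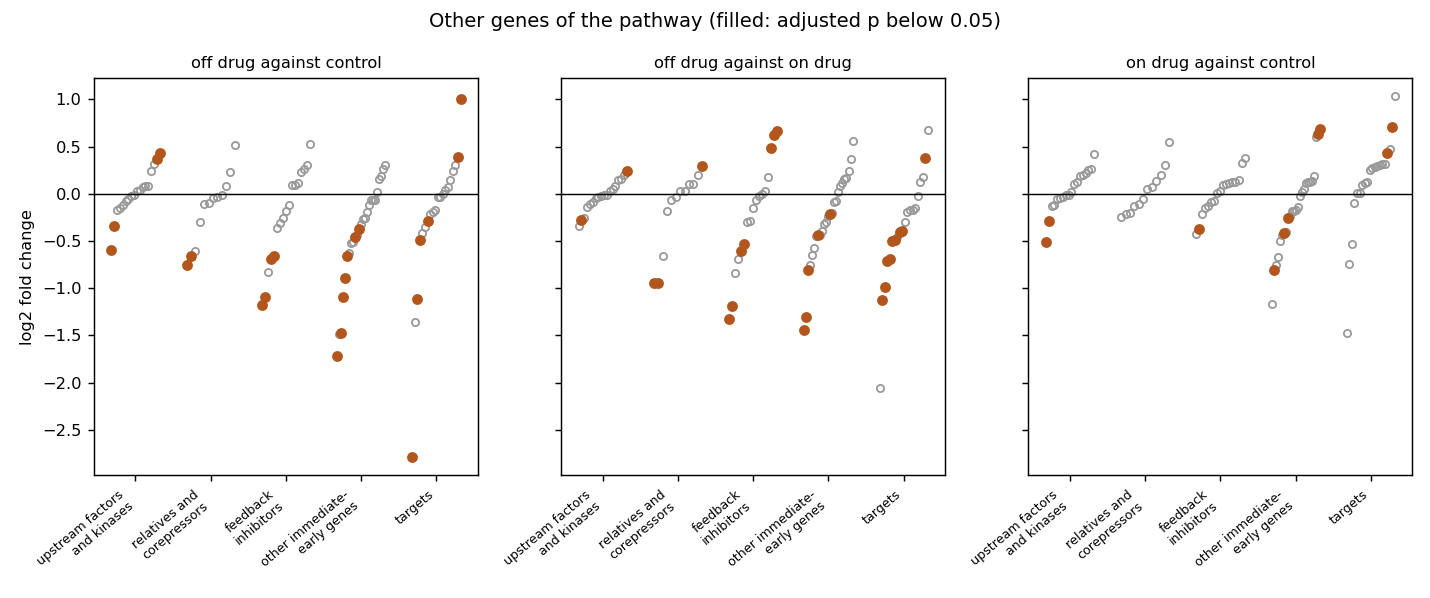
Log2 fold change of the 92 tested genes of the 5 pathway lists in the 3 comparisons, filled where the adjusted p was below 0.05 in edgeR. Off drug against control 19 filled points lie below 0 and 4 above, and on drug against control 6 lie below and 4 above.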

How the data were processed

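Whole-number read counts per gene were deposited for each of the 12 libraries, made by the authors with featureCounts 1.4.6-p3 on GENCODE mouse M13 over a STAR 2.5.3a index, per the file headers. The submitters' processing notes name GRCm38. Reads that map to several places or genes were counted at each, duplicates were ignored and no strand was set, per the file headers. The deposited series table holds log2 values, log2(count / size factor + 1), and was used for symbols and coordinates. RNA of all tissues was extracted together, per the labels' protocols.

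Counts were filtered with filterByExpr (minimum count 10, minimum total 15), scaled by TMM and fitted in edgeR 4.0.16 (R 4.3.3) with 1 robust quasi-likelihood model of 3 groups. P-values are two-sided, adjusted by Benjamini-Hochberg over 24660 genes, with calls at an adjusted p below 0.05. SEs of log2 fold changes come from the F statistic. P-values set the difference between groups against the spread between these libraries. Nothing in the labels says how the mice were bred or caged. Effects of cage or litter, where these coincide with group, cannot be told apart from treatment. Other settings were DESeq2 1.42.0, limma-voom (limma 3.58.1), other scalings and filters, a non-robust fit, the 2 groups alone, replicate number as a block, and each library left out. The steps were also run on simulated counts with 200 changed genes. The outcome is not given here, and nothing is read from it. Named pathway genes are, per list and comparison, up to 4 called genes by smallest adjusted p. Also named are the 3 feedback inhibitors called higher off drug than on drug, and the 8 genes most like the 10. The members and lists were chosen with earlier results of these data known.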

Additional observations from a re-analysis of the deposited data

Results flagged for a closer look

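One of 30 sets of 4 libraries, 10 genes in 3 groups, held a library that stood apart by Dixon's gap criterion. Egr3 had 1.8 CPM in on-drug replicate 3, against 0.705 to 0.752 CPM in the other on-drug mice. The gap to the next value took 0.957 of the group's range, above the critical value for 4 libraries. Chance alone gives about 1 such flag in 20 sets.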

How the results depend on the processing

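All 630 recomputed log2 fold changes of the 10 genes, over 21 other settings and 3 comparisons, stayed within 1 SD of the replicates of the reported values, and no called gene changed sign. Leaving out 1 library can hardly move a group mean by 1 SD, so this measure was lax and nothing is read from it. Counts of calls moved more. On drug against control the called genes of the 10 were 2 lower with a non-robust fit, with the replicate block, with limma-voom and with DESeq2 (Egr1 joining Egr2), and 1 to 3 over the fits without 1 library. Jun was the 1 gene called higher off drug than in controls with the filter of CPM of at least 1, the non-robust fit, the 2 groups alone, limma-voom, DESeq2 and without control replicate 3 (0 to 1 without 1 library). It was the 1 called higher than on drug with that filter, the non-robust fit, limma-voom, DESeq2 and without control replicate 3, off-drug replicate 2 or on-drug replicate 3 (0 to 1). Off drug against control Egr3 was also called lower with no filter, with that filter, with the replicate block and with the 2 groups alone. Fosb was also called lower with the non-robust fit and with limma-voom. Each of these made 6 lower, and DESeq2 called both genes lower, which made 7. The cause was not tested.

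Among all genes 1038 were higher and 388 lower on drug without composition factors (1018 and 725 with them), and off drug against control 1870 were higher and 844 lower (1545 and 1422 with them). On drug 463 were lower with the 2 groups alone and 1353 with DESeq2. Leaving out 1 library gave 472 to 1330 higher and 323 to 960 lower on drug, and 1003 to 1926 higher off drug than in controls. The libraries that moved these by over 1.5 times were control replicate 3 (541 and 365 on drug, 1003 off drug), on-drug replicates 2 (665 higher), 3 (472 and 331) and 4 (595 and 323), and off-drug replicate 1 (1029). Of the pathway genes on drug against control, 7 were higher without composition factors, with no filter and with the CPM filter, and 8 with DESeq2. There were 2 lower without composition factors and 10 with DESeq2. Leaving out 1 library gave 3 to 10 higher (7 without control replicate 1, 10 without on-drug replicate 1) and 2 to 8 lower (2 without on-drug replicate 4). Off drug, pathway genes higher than in controls were 4 to 8 (8 without control replicate 1, 7 without on-drug replicate 1), and higher than on drug 3 to 7 (3 without on-drug replicate 2). 

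Replicate numbers are shared by the groups without a stated pairing. The deviations of the 12 same-numbered pairs from their group means correlated by -0.0797 to 0.0672, and 2 of 12 libraries were closest to one of their own number, so the block is only an alternative. Depth limits Egr3, with 36 to 117 reads per library.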
